A study of Mus musculus with 9 samples.

Results

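The genes described here are 10 regulators of the ubiquitin signals that carry NF-kB activation away from Toll-like and TNF receptors: Tnfaip3, which encodes A20, the 3 ABIN genes Tnip1, Tnip2 and Tnip3, the deubiquitinase gene Cyld, the TRAF genes Traf1, Traf2 and Traf3, and the IAP genes Birc2 and Birc3. They were chosen by name. Each was read from the probe set that names that gene alone and, where a gene had several, from the one with the highest mean over the arrays. Of the 10 genes 9 had such a probe set, out of 19938 genes measured in all, and Traf3 has no value here. RNA was measured on 9 Affymetrix mouse gene arrays, 3 per group, from dendritic cells that had been grown for 8 days from mouse bone marrow progenitors. The groups were untransduced wild-type cells without stimulation, untransduced wild-type cells after 4 h with 100 ng/ml LPS, the bacterial ligand of Toll-like receptor 4, and cells carrying a hairpin against JmjD2d after the same LPS treatment.

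The progenitors of all 3 groups were expanded with IL-3, IL-6 and SCF (20 ng/ml of each), then grown for 4 days in 4% GM-CSF supernatant with 5 ng/ml SCF and for 4 days in GM-CSF without SCF. The hairpin was delivered by the retroviral vector pSir-delta U6CHisD with 2 mM histidinol as selection, and the wild-type cells were not transduced. Arrays of a control hairpin and of unstimulated knockdown cells were not analysed here, so a difference between knockdown and wild-type cells cannot be told apart from infection and selection. The series describes the replicates as independent cultures, and the labels do not say that arrays of the same number share a culture. JmjD2d is the product of Kdm4d, a demethylase of lysine 9 of histone H3.

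A20 is an enzyme that edits ubiquitin chains on signalling proteins and so ends NF-kB signalling, and the ABIN proteins bind ubiquitin chains and help A20 to act. CYLD removes the chains on which the kinase complexes assemble. TRAF proteins are the adaptors that receptors of the TNF family recruit, and the IAP ubiquitin ligases cIAP1 (Birc2) and cIAP2 (Birc3) reach those receptors bound to TRAF2. In dendritic cells A20 is known as a brake on maturation and on the response to LPS. Several of these regulators are NF-kB targets themselves, which makes them feedback genes.

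The promoters are shown because 3 of the genes that LPS raised carry the binding consensus of NF-kB close to their start. RefSeq windows (assembly GRCm38.p6) that run from 250 bases before to 50 after a start were matched by symbol, and all 10 genes had one, 12 windows in total. They were searched on both strands for the 10-base NF-kB (kappa B) consensus in 2 overlapping forms, and a palindromic site counts on both strands. Of the 10 genes 5 had a match in either form: Tnfaip3, Tnip1, Tnip3, Cyld and Traf3. Of the 27025 genes with a window 7.81% had one. The stretches below run 5′ to 3′ on the strand of the gene and end at or before its start, and capitals mark the matches.
Tnfaip3 (chr10:19015411-19015575, minus strand): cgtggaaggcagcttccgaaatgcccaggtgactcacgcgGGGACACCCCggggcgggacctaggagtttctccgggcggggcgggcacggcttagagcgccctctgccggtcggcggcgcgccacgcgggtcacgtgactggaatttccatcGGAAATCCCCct
Tnip1 (chr11:54962947-54963038, minus strand): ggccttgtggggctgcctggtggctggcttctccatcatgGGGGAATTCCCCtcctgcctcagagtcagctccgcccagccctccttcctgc
Tnip3 (chr6:65590304-65590393, plus strand): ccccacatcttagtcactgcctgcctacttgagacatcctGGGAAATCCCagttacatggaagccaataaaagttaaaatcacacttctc
The Tnfaip3 window held matches that began 125 and 12 bases before the start, and the second window of this gene held none. The 4 overlapping matches of Tnip1 form a single palindrome that begins 58 bases before the start, and the match of Tnip3 begins 54 bases before it. The windows of Traf1, Traf2, Birc2, Birc3 and Tnip2 held no match, which says only that these letters are not in these windows. A match is a description of the sequence and not a measured binding site.

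Arrays numbered 2 differed from the mean of arrays 1 and 3 in every group. The mean log2 level of 13 interferon response genes was higher there by 1.68 without LPS, 1.41 with LPS and 0.85 in knockdown cells. Those of the neutrophil markers (differences of -0.78, -1.25 and -1.91) and the dendritic cell markers (-0.91, -0.74 and -0.66) were lower. Arrays 1 and 3 were not always alike: on knockdown arrays the dendritic cell marker H2-Ab1 read 12.79, 10.42 and 10.52, with array 1 apart. Kdm4d, the target of the hairpin, read 7.43, 7.11 and 7.40 in knockdown cells and 7.79, 7.54 and 7.74 in wild-type cells after LPS. The knockdown signal was 77.1% of the wild-type one, a difference that did not pass the test (limma adjusted p = 0.278). These values lay close to the median of all deposited values, 7.254, and how far so dim a signal follows the transcript was not tested. Of 12 dendritic cell markers 11 lay above 7.254, the median of all deposited values, in each group, with Itgax, the CD11c gene, at means of 12.46 to 12.98, while Flt3 stayed below it. All 11 measured macrophage markers and 9 to 11 of the 12 neutrophil markers also lay above it, against 3 to 4 of 12 mast cell and basophil markers and 0 to 1 of 8 lymphocyte markers. In bulk RNA fewer cells of a type and less RNA per cell cannot be told apart.

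The first comparison asks how the regulators responded to LPS in wild-type cells. LPS raised 6 of the 9 measured genes: Traf1 and Tnfaip3 most, then Tnip1, Tnip3, Traf2 and Birc3, by 6.71-fold to 1.8-fold. None fell, and Cyld and Tnip2 had intervals that included no difference. By limma at an adjusted p under 0.05, 3.99% of all genes tested rose and 6.86% fell. The median log2 difference was 0.98 over the 9 genes and 0.04 over all genes. Values below are log2 signals of the arrays in the order of replicates 1 to 3, and errors of differences are standard errors from the model.

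**Figure D1:**
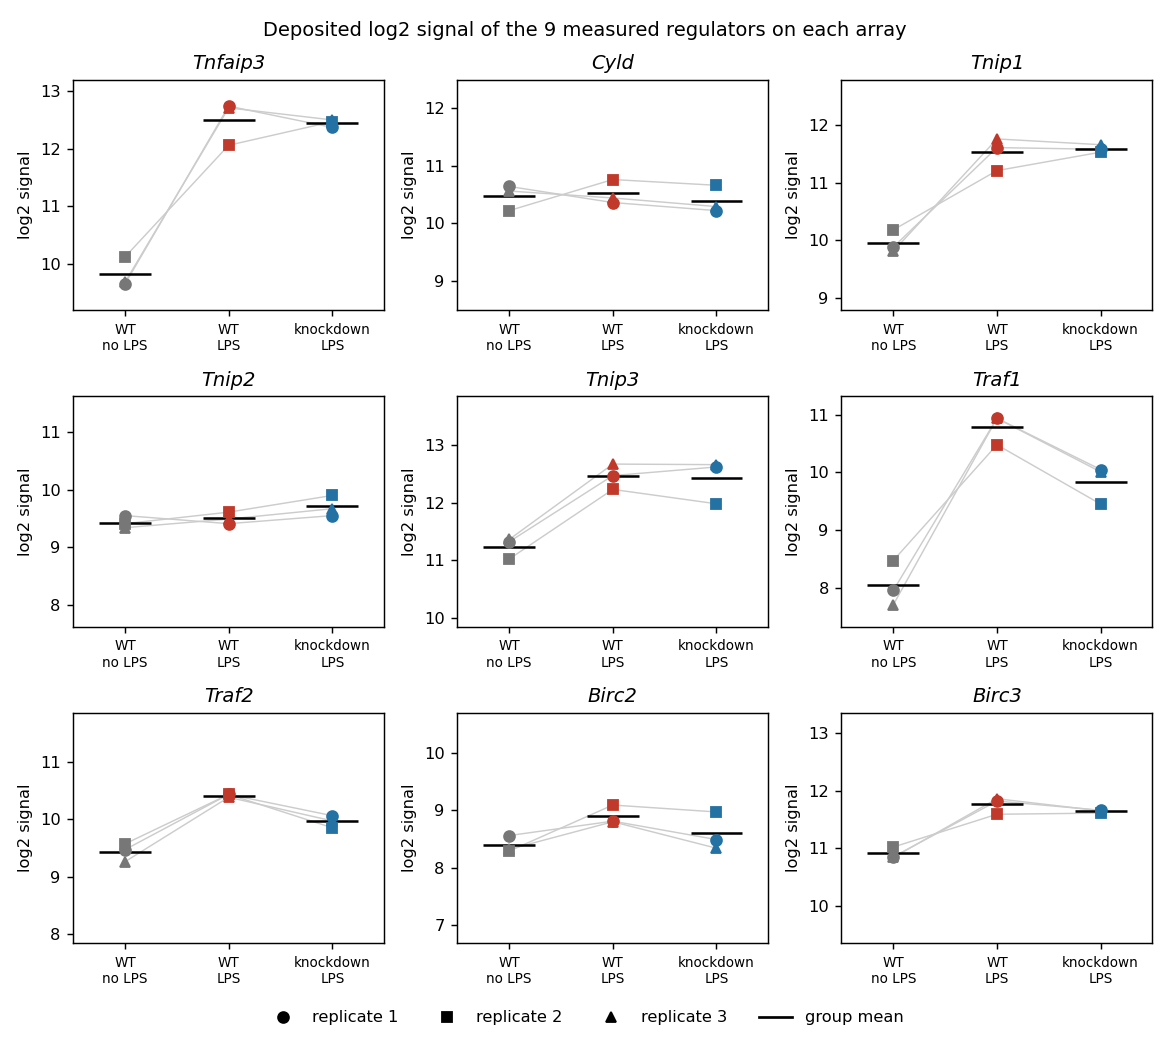
Log2 signal (vertical axis, 4 log2 units high in every panel) of each measured regulator on each array, by group; point shapes mark the replicate number, grey lines join arrays of the same number and black bars are group means (n = 3). Tnfaip3, Tnip1, Tnip3, Traf1, Traf2, Birc2 and Birc3 lie higher on all 3 LPS-treated wild-type arrays than on all 3 unstimulated ones, and Traf1 and Traf2 lie in between in knockdown cells.

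Tnfaip3, the A20 gene, read 9.65, 10.12 and 9.68 in unstimulated wild-type cells, 12.74, 12.06 and 12.71 in wild-type cells after LPS, and 12.37, 12.47 and 12.50 in knockdown cells after LPS. The unstimulated values lay below all 6 LPS values, while the ranges of the wild-type and knockdown LPS values overlapped. LPS raised it 6.43-fold in wild-type cells (log2 difference 2.68, SE 0.19, limma adjusted p = 0.000363), which placed it 44 from the top of 19938 genes by size of the difference. The rise between arrays of the same number was 3.09, 1.94 and 3.02 on the log2 scale, so pair 2 had the smallest rise: its unstimulated array was the highest of its group and its LPS array the lowest.

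Cyld, the deubiquitinase gene, read 10.64, 10.22 and 10.56 before LPS, 10.36, 10.76 and 10.44 after LPS in wild-type cells, and 10.22, 10.66 and 10.29 in knockdown cells. The 3 groups overlapped throughout. Its LPS difference was 0.04 (SE 0.16, 95% confidence interval -0.33 to 0.42, limma adjusted p = 0.875). The pairs did not share a direction, at -0.28, 0.54 and -0.12.

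Among the ABIN genes, LPS raised Tnip1 and Tnip3 and did not detectably change Tnip2. Tnip1 encodes ABIN-1, the ubiquitin-binding partner of A20. It read 9.88, 10.18 and 9.81 before LPS and 11.61, 11.21 and 11.76 after it in wild-type cells, and 11.58, 11.53 and 11.66 in knockdown cells. It rose 2.97-fold (log2 difference 1.57, SE 0.15, limma adjusted p = 0.000888), and pair 2 again had the smallest rise, 1.03 against 1.73 and 1.95.

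Tnip3, which encodes ABIN-3, read 11.32, 11.02 and 11.36 before LPS, 12.47, 12.23 and 12.67 after it in wild-type cells, and 12.62, 11.98 and 12.66 in knockdown cells. Array 2 was the lowest of each group, and every LPS value lay above every unstimulated one. LPS raised it 2.34-fold in wild-type cells (log2 difference 1.22, SE 0.20, limma adjusted p = 0.00735). The rises of the 3 pairs, at 1.15, 1.22 and 1.31, lay closer together than those of Tnfaip3 or Tnip1.

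Tnip2, which encodes ABIN-2, a partner of the kinase TPL2 (Map3k8), read 9.55, 9.41 and 9.34 before LPS and 9.41, 9.61 and 9.49 after it in wild-type cells. Its knockdown values were 9.55, 9.90 and 9.67. The wild-type groups overlapped and differed by 0.07 (SE 0.10, 95% confidence interval -0.17 to 0.31, limma adjusted p = 0.677). A rise as large as that of Tnip3 lies outside this interval.

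Both measured TRAF genes rose. Traf1 encodes an adaptor that, unlike TRAF2, has no RING domain of ubiquitin ligases, and it is a classical NF-kB target. It read 7.95, 8.47 and 7.70 before LPS and 10.94, 10.48 and 10.94 after it in wild-type cells, and the groups lay far apart. The rise was 6.71-fold (log2 difference 2.75, SE 0.24, limma adjusted p = 0.000689), 40 from the top of all genes, and was 3.00, 2.01 and 3.24 in the 3 pairs.

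Traf2 encodes the adaptor that brings the cIAP ligases to TNF receptors. It read 9.47, 9.57 and 9.26 before LPS, and 10.43, 10.43 and 10.38 after it in wild-type cells. The LPS arrays lay close together (SD 0.03) and above all unstimulated ones. It rose 1.97-fold (log2 difference 0.98, SE 0.09, limma adjusted p = 0.000814). Within each array the Traf1 signal was set against that of Traf2: the difference went from a mean of -1.39 ± 0.25 (SD, n = 3) before LPS to 0.37 ± 0.28 after it. This change of 1.77 did not pass a test that ignores the replicate numbers and cannot pass in this design (exact two-sided permutation p = 0.1, the smallest that 3 against 3 arrays allow, 0.2 adjusted over 4 such tests). Between arrays of the same number it was 2.04, 1.15 and 2.11.

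Of the IAP genes, Birc3 rose, and Birc2 had higher values that did not pass the test. Birc3 encodes cIAP2, the IAP ligase known as the NF-kB-inducible one. It read 10.85, 11.02 and 10.84 before LPS, 11.82, 11.59 and 11.86 after it in wild-type cells, and 11.66, 11.61 and 11.65 in knockdown cells. LPS raised it 1.8-fold in wild-type cells (log2 difference 0.85, SE 0.09, limma adjusted p = 0.00109).

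Birc2, the cIAP1 gene that neighbours Birc3 on the chromosome, read 8.56, 8.29 and 8.32 before LPS, 8.81, 9.09 and 8.80 after it in wild-type cells, and 8.49, 8.97 and 8.34 in knockdown cells. The wild-type groups did not overlap, with higher values after LPS, as held for 12.8% of all genes and 7 of the 9 regulators, and their difference was 0.51 (SE 0.17, limma adjusted p = 0.0894). Under 4 alternatives it passed: after quantile normalization (0.61, adjusted p = 0.0246), as the mean of its probe sets (0.38, adjusted p = 0.0271), with only the compared groups in the fit (adjusted p = 0.048), and without knockdown replicate 2, which stood high in its group (adjusted p = 0.0258). Its second and dimmer probe set, differed by 0.26. The within-array difference of Birc3 and Birc2 changed by 0.34 with LPS, from 2.52 ± 0.22 to 2.86 ± 0.31 (SD, n = 3 each, exact two-sided permutation p = 0.3, 0.4 adjusted over 4 tests), and by 0.72, -0.23 and 0.54 between arrays of the same number. Whether probes of these similar genes take up each other's RNA was not tested.

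The 6 rises were called when any 1 array was left out and when replicate 2 was left out of every group. Without replicate 2, whose arrays carried the higher interferon gene levels, they ran from 0.99 (Birc3) to 3.12 (Traf1), with 3.06 for Tnfaip3, 1.84 for Tnip1, 1.23 for Tnip3 and 1.04 for Traf2. Pair 2 had the smallest rise of Tnfaip3, Tnip1, Traf1, Traf2 and Birc3, and the part of the marker shifts in this was not tested. The 6 rises were not called when replicate 1 or replicate 3 was left out of every group, which leaves 2 arrays a group (limma adjusted p from 0.0614 to 0.17 without replicate 1 and from 0.078 to 0.175 without replicate 3), and the differences kept their direction, at 0.79 to 2.62 and 0.77 to 2.52.

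The second comparison, which the series title names, asks whether the LPS-treated knockdown cells differed from the LPS-treated wild-type cells. The A20 and ABIN genes that LPS had raised each stood in knockdown cells within 0.06 of their own wild-type level on the log2 scale, with intervals given below. Traf1 and Traf2 were lower on every knockdown array, with 51.8% and 73.1% of the wild-type signal, but neither passed the adjusted test. By limma 0 of the 9 genes were called at an adjusted p under 0.05, against 0.762% of all genes, and 2 were lower at an unadjusted p under 0.05, against 5.79% of all genes. The median log2 difference was -0.12 over the 9 genes and -0.03 over all genes. With the replicate number as a block, called the paired fit, again 0 of the 9 passed, against 2.75% of all genes.

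**Figure D2:**
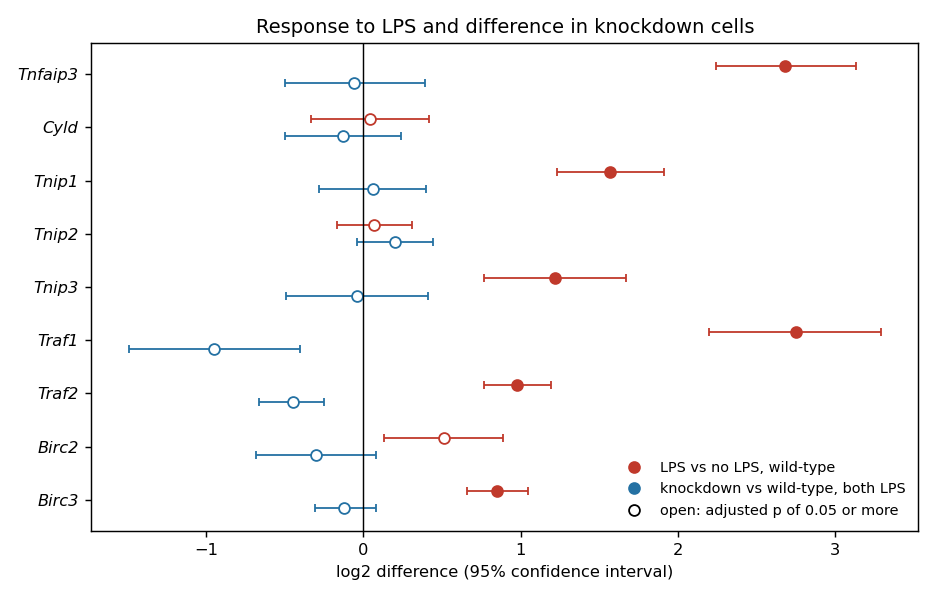
Log2 differences with 95% confidence intervals (horizontal axis) of the 9 regulators for LPS against no LPS in wild-type cells (red) and for knockdown against wild-type cells after LPS (blue), n = 3 arrays per group; filled points passed the adjusted test. All 6 filled points are rises with LPS, and in the knockdown comparison the intervals of Traf1 and Traf2 lie below 0 while the other 7 include it. Both comparisons use the same 3 LPS-treated wild-type arrays.

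Traf1 read 10.05, 9.45 and 10.01 in knockdown cells against 10.94, 10.48 and 10.94 in wild-type cells after LPS. All 3 knockdown values lay below all wild-type LPS values and above all unstimulated ones (7.70 to 8.47). The knockdown value was 1.93-fold lower (log2 difference -0.95, SE 0.24, 95% confidence interval -1.49 to -0.40, limma adjusted p = 0.123, paired fit 0.119). It was lower in 3 of 3 pairs, by log2 differences of -0.89, -1.03 and -0.92. Without replicate 2 in every group the difference was -0.91 and passed (limma adjusted p = 0.0196), in a fit that called more genes overall. Over its alternatives the adjusted p ran from 0.0196 to 0.786.

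Traf2 read 10.06, 9.85 and 9.97 in knockdown cells against 10.43, 10.43 and 10.38 in wild-type cells. Again the 3 groups followed one another without overlap, with the knockdown values in the middle. The difference was -0.45 (SE 0.09, 95% confidence interval -0.66 to -0.25, limma adjusted p = 0.0705, from 0.0581 in the paired fit to 0.652 over its alternatives), and -0.37, -0.58 and -0.41 in the 3 pairs. This order, with knockdown between unstimulated and LPS-treated wild-type arrays and no overlap, was seen in 118 of all genes, 0.592%. Over all genes 8.38% lay lower in knockdown than in wild-type LPS cells without overlap, and of the 9 regulators 2 did. Without replicate 2 in every group the Traf2 difference was -0.39 (limma adjusted p = 0.0855). The within-array difference of Traf1 and Traf2 went from 0.37 ± 0.28 in wild-type to -0.12 ± 0.24 in knockdown cells (SD, n = 3 each), a change of -0.50 (exact two-sided permutation p = 0.1, the smallest possible, 0.2 adjusted over 4 tests), and of -0.52, -0.45 and -0.51 in the 3 pairs. That of Birc3 and Birc2 changed by 0.18 (exact two-sided permutation p = 0.5, 0.5 adjusted over 4 tests). This test does not use the pairs, in which the change was 0.16, 0.14 and 0.25, so its p reflects the spread between replicates of a group.

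Markers of dendritic cells were also lower in knockdown cells, as Traf1 and Traf2 were. With LPS in wild-type cells, where both TRAF genes rose, the median difference of this list was 0.07. Without adjustment 8 of 12 were lower in knockdown than in wild-type cells after LPS at p under 0.05, against 5.79% of all genes. The paired fit called 7 of 12 lower, against 2.75% of all genes in either direction. The mean log2 level of the list was 8.78 to 10 on knockdown arrays and 10.11 to 11.06 on wild-type LPS arrays. Neutrophil markers were lower with overlap, at 7.79 to 9.79 against 8.91 to 10.53, and 3 of 12 passed without adjustment, 1 in the paired fit. The mean level of mast cell and basophil markers was lower without overlap, at 6.30 to 6.63 against 6.93 to 7.29, but their median difference was -0.15. Of the 12, 5 passed without adjustment, 3 in the paired fit. Those 3, named after their values were seen, were Cpa3 (-1.88), Kit (-1.73) and Gata2 (-0.87), and Hdc differed by -2.34 without passing it. Other members did not follow: Ms4a2 (-0.01), Tpsab1 (-0.05), Cma1 (-0.09) and Mcpt4 (0.07), all with signals below 7.254, the median of all values. Of 11 macrophage markers 1 was higher (Mertk, 0.71) and 1 lower (Csf1r, -0.65) without adjustment, and 0 passed in the paired fit. The part of these marker shifts in the Traf1 and Traf2 differences was not tested.

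The other 7 regulators overlapped between knockdown and wild-type cells. The differences were -0.06 for Tnfaip3 (95% confidence interval -0.50 to 0.39), 0.06 for Tnip1 (-0.28 to 0.40) and -0.04 for Tnip3 (-0.49 to 0.41). Birc3 differed by -0.12 (-0.31 to 0.08). For these 4 genes the intervals leave out a loss of the whole LPS rise but allow smaller differences. Birc2 differed by -0.30 (-0.68 to 0.08), Cyld by -0.13 (-0.50 to 0.24) and Tnip2 by 0.20 (-0.04 to 0.44), with limma adjusted p from 0.468 to 0.947 over the 7 genes. Tnip2 was higher in 3 of 3 pairs (0.14, 0.29 and 0.17), and Birc2 (-0.32, -0.12 and -0.46) and Cyld (-0.14, -0.10 and -0.15) were lower in 3 of 3. The spread of Tnfaip3 was 0.38 (SD) over the wild-type LPS arrays and 0.07 over the knockdown arrays. Without replicate 2 in every group the Tnfaip3 difference was -0.29 (limma adjusted p = 0.102) and that of Birc3 -0.18 (0.182), while Tnip1 and Tnip3 stayed at -0.07 and 0.07.

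The third comparison sets LPS-treated knockdown cells against unstimulated wild-type cells, and it shares arrays with both others. Here 6 genes were called higher and none lower, against 4.23% and 6.64% of all genes. The log2 differences were 2.63 for Tnfaip3, 1.63 for Tnip1, 1.18 for Tnip3, 1.80 for Traf1, 0.53 for Traf2 and 0.74 for Birc3 (limma adjusted p from 0.000293 to 0.00844). As a percent of the wild-type difference this was 97.9% for Tnfaip3, 104% for Tnip1, 96.8% for Tnip3 and 86.5% for Birc3, but 65.5% for Traf1 and 53.9% for Traf2. These shares are counted from unstimulated wild-type cells and do not measure induction within knockdown cells. Tnip2 had a difference of 0.27 without overlap, as 12.2% of all genes had in this direction, although its nearest arrays both round to 9.55 (limma adjusted p = 0.153), and 0.33 after quantile normalization (adjusted p = 0.027). Without replicate 1 in every group 1 of the 6, Tnfaip3, stayed called, and without replicate 3 none did. Without replicate 2 Cyld was called lower (-0.34, limma adjusted p = 0.0229).

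The rest of the pathway was followed in 6 lists with 73 measured genes. In wild-type cells LPS raised 22 and lowered 3 of them, against 3.99% and 6.86% of all genes. By limma 0 of the 73 were called between knockdown and wild-type cells after LPS, while without adjustment 8 were lower and 1 was higher at p under 0.05 (5.79% and 7.32% of all genes). The paired fit called 3 lower and 1 higher, against 2.75% of all genes in either direction.

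**Figure D3:**
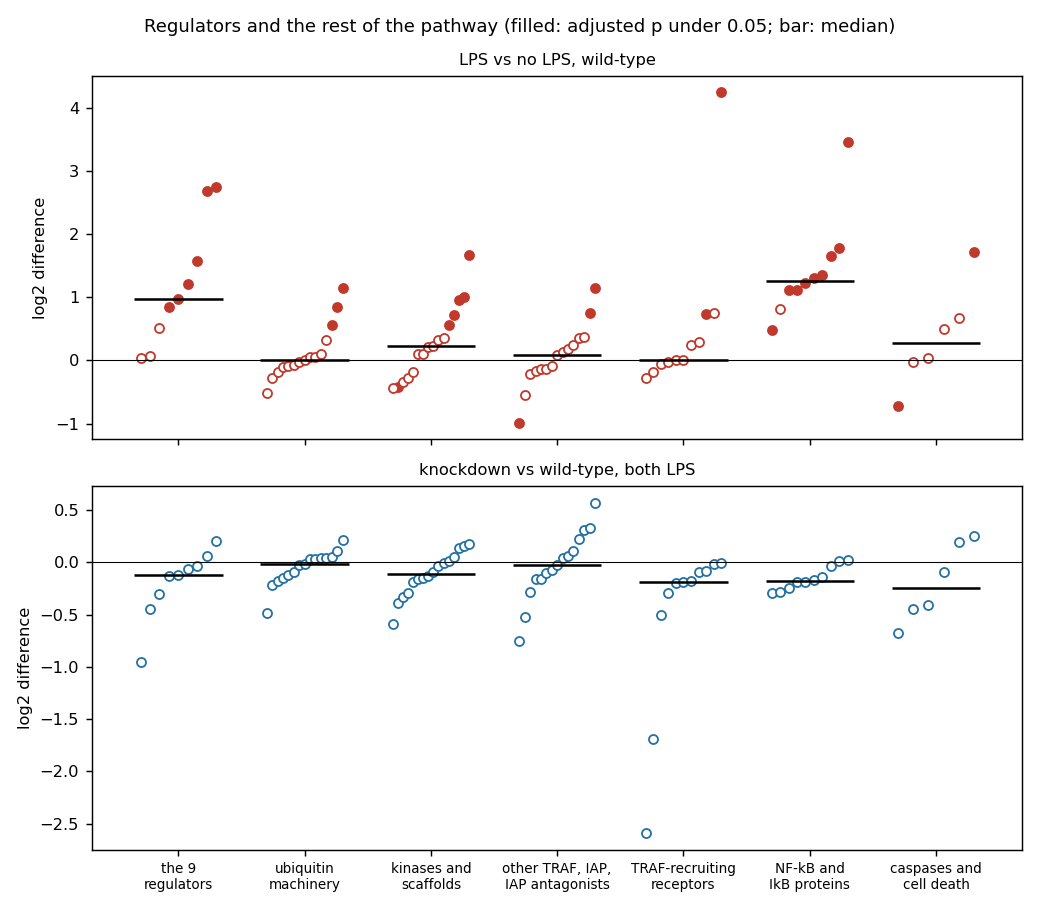
Log2 differences (vertical axes) of the 9 regulators and of the 6 pathway lists for LPS against no LPS in wild-type cells (top) and for knockdown against wild-type cells after LPS (bottom); each point is a gene, bars are medians and filled points passed the adjusted test. The NF-kB and IkB list has the highest median with LPS, 1.26, and no point is filled in the lower plot, where Tnfrsf9 and Cd40 lie lowest at -2.59 and -1.69.

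NF-kB subunits and IkB proteins rose in 9 of 10 genes, with a median of 1.26. Nfkbia, the IkB-alpha gene whose protein holds NF-kB in the cytoplasm, rose by 1.79 (SE 0.15), and its relatives Nfkbib by 1.30 (SE 0.12) and Nfkbie by 1.12 (SE 0.09). Nfkb2, the p100 gene of the pathway that TRAF and cIAP proteins restrain, rose by 1.65 (SE 0.17). In knockdown cells the list's median difference was -0.18. Among these genes Rel, the c-Rel subunit, differed there by -0.29 (limma adjusted p = 0.58) and Nfkbia by -0.04.

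Of 16 kinases and scaffolds 5 rose and 1 fell with LPS. Tank, which binds TRAF proteins and the kinase TBK1, rose by 0.96 (SE 0.08), and the TBK1 relative Ikbke by 1.68 (SE 0.19). Map3k8, the kinase TPL2 that ABIN-2 holds, rose by 1.01 (SE 0.12), while Tnip2 itself did not. Ikbkb, the IKK-beta gene, rose by 0.56 (SE 0.07) and differed by -0.39 in knockdown cells (SE 0.07, limma adjusted p = 0.0578, paired fit 0.0554). Tbk1 rose by 0.72 and differed by -0.33 in knockdown cells (limma adjusted p = 0.147), and Map3k14, the kinase NIK that TRAF2, TRAF3 and cIAP proteins keep low, by -0.59 (limma adjusted p = 0.267). The gene that fell with LPS, outside the rule for named genes and chosen after its value was seen, was Irak1 (-0.42).

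Of the 11 receptors that recruit TRAF proteins, 2 rose. Cd40, the receptor by which T cells license dendritic cells, read 8.50, 8.20 and 8.26 before LPS, 12.73, 12.12 and 12.85 after it, and 11.41, 9.90 and 11.34 in knockdown cells. It rose by 4.25 (SE 0.38), and the knockdown values lay between those of the other groups, at -1.69 from the wild-type LPS level (SE 0.38, limma adjusted p = 0.0971, called by the paired fit at 0.0259). Tnfrsf1b, TNF receptor 2, whose tail binds TRAF2, rose by 0.74 (SE 0.10) and differed by -0.01 in knockdown cells. Tnfrsf9, the 4-1BB receptor that signals through TRAF1 and TRAF2, had the largest knockdown difference of the 73 genes, -2.59, with a wide spread (SE 0.73, limma adjusted p = 0.161). Its wild-type values of 10.42, 12.83 and 9.96 before LPS and 11.51, 12.62 and 11.33 after it were highest on array 2 of each group.

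Among 15 other TRAF, IAP and IAP antagonist genes, LPS raised Traf5 by 1.15 (SE 0.23) and lowered Traf3ip3, with a difference of -0.99 (SE 0.12). It also raised Trafd1, a TRAF-like zinc finger protein, by 0.76 (SE 0.20), just under the threshold (limma adjusted p = 0.0484). The Trafd1 rise was 0.55, 1.25 and 0.48 in the 3 pairs, largest in pair 2. Htra2, a mitochondrial protease that inactivates IAP proteins, differed by -0.75 in knockdown cells (SE 0.14, limma adjusted p = 0.0613, called lower by the paired fit at 0.0368). Birc5, the survivin gene of dividing cells, differed by 0.57 (limma adjusted p = 0.275, called higher by the paired fit at 0.0442).

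Of 15 ubiquitin partners 3 rose with LPS: Rnf31, which encodes the catalytic subunit HOIP of the linear ubiquitin ligase, by 0.84 (SE 0.12), Rnf11, a subunit of the A20 editing complex, by 0.57 (SE 0.12), and Usp18, an interferon-induced protease, by 1.15 (SE 0.28). None was called lower with LPS, and the list's median was 0.00. In knockdown cells the named members with the smallest p were Usp18 at -0.49, Ube2n at 0.21 and Ube2v1 at 0.11 (limma adjusted p from 0.387 to 0.511). Of 6 caspase and cell death genes Cflar, the inhibitor of caspase-8 activation, rose by 1.72 (SE 0.08), and Casp9 fell, with a difference of -0.72 (SE 0.12). Gsdmd, the pore-forming gasdermin D, differed by -0.68 in knockdown cells (SE 0.15, limma adjusted p = 0.091, called lower by the paired fit at 0.0285).

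Among all genes, those with the profile most like each regulator over the 9 arrays were found by the root mean square difference of their log2 values after each gene was centred on its mean. For Tnfaip3 they were Slc16a10 (0.18), Tnf (0.21) and Cav1 (0.24). For Tnip1 they were Rdh11 (0.10), Nfkb2 (0.12) and Phlda1 (0.14), and for Tnip3 Denr (0.10), Txnrd1 (0.11) and Trem3 (0.15). Those of Birc3 were Kmt5a (0.08), Eif6 (0.08) and Rhoq (0.09). In each of these 12 genes the knockdown difference lay between -0.17 and 0.14. For Traf1 they were Mefv (0.20), Ak4 (0.24) and Dcbld2 (0.25), with knockdown differences of -0.64, -1.16 and -0.60, and for Traf2 St3gal1 (0.11), Clcn7 (0.12) and Kremen1 (0.12), with -0.23, -0.36 and -0.65. The likeness uses all 3 groups, so these knockdown differences are part of what was matched.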

How the data were processed

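The deposited values are log2 signals, 1 per probe set and array, which the authors computed by RMA according to the submitters' processing notes, which state no version. RMA corrects background, normalizes arrays to each other and summarises probes, so array-wide shifts are reduced, although the array medians still differed slightly. Array medians lay between 7.217 and 7.315, and replicates correlated by 0.985 to 0.997 across genes. No further normalization was applied. Of 35556 probe sets, 21789 named a single gene, and 21698 of these took their symbol from RefSeq (assembly GRCm38.p6), whether or not it changed. The one with the highest mean per gene gave 19938 genes.

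Group means were fitted to all 9 arrays with limma 3.58.1 in R 4.3.3 (lmFit, eBayes, 6 residual degrees of freedom plus a prior of 2.31), two-sided, with Benjamini-Hochberg adjustment over all genes and calls at 0.05. The script was tested on simulated data. Permutation tests used scipy 1.17.1. The paired fit adds the replicate number as a block. The numbers were taken as pairs because deviations from group means correlated by 0.14 to 0.48 between same-numbered arrays (9 pairs) and by -0.41 to 0.25 otherwise. These ranges overlap, and the pairing was inferred from these same data and not from the labels.

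Members, lists, markers and the rule for named genes (all members, Kdm4d, up to 4 genes of each list with the smallest p for LPS, up to 3 for knockdown and any called there, and 3 most alike genes per called member) were chosen with earlier results of these data known. Probe sets naming several genes or none were left out. No depth applies to arrays; 3 per group limits precision.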

Additional observations from a re-analysis of the deposited data

How the results depend on the processing

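With 3 arrays per group the calls depend on which arrays enter. Alternatives were the replicate block, quantile normalization, equal array medians, a filter on dim probe sets, other probe set rules, an intensity trend with a robust prior, the compared groups only, and leaving out each array or each replicate number. No regulator difference that was called in the main fit changed sign under any of them. Some uncalled ones did, such as those between knockdown and wild-type cells after LPS. These ran from -0.29 to 0.1 for Tnfaip3, from -0.1 to 0.18 for Tnip1 and from -0.16 to 0.18 for Tnip3. For LPS in wild-type cells 164 of the values of single regulators kept their side of the threshold, 12 lost it (all without replicate 1 or 3 of every group) and 4 gained it (all Birc2). For knockdown against wild-type cells 179 kept it and 1 gained it (Traf1).

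Leaving out arrays, the number of regulators called higher ran from 0 to 7 for LPS in wild-type cells and from 0 to 6 for knockdown LPS against unstimulated wild-type cells, and the number lower from 0 to 1 in that comparison and from 0 to 1 for knockdown against wild-type after LPS. Over all genes it ran from 11 to 1757 higher and 0 to 3152 lower with LPS, from 0 to 427 higher and 0 to 241 lower for knockdown against wild-type, and from 30 to 1313 higher and 13 to 2490 lower for the third comparison. Of these counts over all genes, the lowest came without replicate 1 or 3 of every group and the highest without replicate 2. For knockdown against wild-type after LPS, 80 genes were called higher and 72 lower, against 301 and 247 with the replicate block, 111 lower after quantile normalization, and 14 and 19 with the compared groups only, where fewer arrays entered the fit. Among the regulators the replicate block changed no call. A further cause was not tested.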
